A study of Mus musculus with 116 samples.

Results

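The mouse Bcl2a1 genes are several near-identical copies, on chromosome 9, of the gene for A1, a survival protein of the BCL2 family. Whether each copy makes a working protein was not looked at here. The probes followed here are those whose platform annotation gives Bcl2a1a, Bcl2a1c or Bcl2a1d as their only gene symbol. They are 3 genes of 15097 with a probe of their own symbol, and 3 probes of 23040 on the array, 1 for each gene: CGEN_MOUSE_EXT_3106725_1 for Bcl2a1a, CGEN_MOUSE_3004961_1 for Bcl2a1c and CGEN_MOUSE_EXT_3106705_1 for Bcl2a1d. The genes were picked out from their rise in GM-CSF at 72 h. The GM-CSF time course and every comparison with the parental RNAs at 0 h or 72 h are therefore given as a description, without a test. Tests are kept for the other comparisons. The fitted levels join all arrays of a replicate number, those of the GM-CSF time course included. The tests are therefore not fully separate from the choice of the genes. FI-Delta against GM-CSF at 6 to 48 h also shares RNAs with that time course.

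BCL2-family proteins control the release of cytochrome c from mitochondria. A1 belongs to the anti-apoptotic branch with Bcl2, Bcl-xL and Mcl1, and it binds the pro-apoptotic BH3-only proteins and the effectors that would otherwise open the outer mitochondrial membrane. Its genes are expressed mainly in blood cells, are known as GM-CSF and NF-kB targets, and are best described in neutrophils, macrophages, mast cells and activated lymphocytes.

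The cells were FDB1, a mouse myeloid line that depends on interleukin-3 (IL-3) or GM-CSF. Parental FDB1 cells and FDB1 cells carrying either of a pair of receptor mutants, V449E and FI-Delta, were all grown in Iscove's medium with 10% fetal calf serum and IL-3 at 500 U/mL. At 0 h the cells were washed free of IL-3. Parental cells then grew in GM-CSF at 500 U/mL, while the V449E and FI-Delta cells were left without any added factor, and RNA was taken at 6, 12, 24, 48 and 72 h. The parental RNA of 0 h is labelled as GM-CSF on print run 1 and as IL-3 on print run 2, and the series' design text treats these as equivalent, as is done here. Both mutants are known as constitutively active forms of the shared beta chain of the GM-CSF and IL-3 receptors, V449E altered in the membrane-spanning segment and FI-Delta in the extracellular part. Whether each mutant line is a clone or a pool is not given in the sources used here. The mutant lines at 0 h and the parental cells at 0 h were all in IL-3, so a difference between them is between lines and not between factors, whereas every later comparison with parental cells sets a mutant without factor against GM-CSF. The labels give 2 replicates of each of 18 conditions, 36 RNAs in all. Nothing in the labels ties the replicates to different cultures, and p-values then measure only the spread between these RNAs, which may be technical.

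Pairs of RNAs were hybridised on spotted 2-colour arrays in 58 dye-swap pairs. The values are ratios, taken as log2 of Cy5 over Cy3, so that the directions given are likely rather than stated by a source used here. Ratios carry no absolute level, so the identity of the line could not be checked by whether marker genes are present. Array medians lay between -0.0165 and 0.0106. The arrays of a dye-swap pair were negatively correlated over the probes in all 58 pairs, from r = -0.653 to -0.0327, as opposite dye orientations give. The number of arrays limits the precision: each parental, V449E or FI-Delta RNA state was on 8 to 32 arrays, and the median SE of a difference between conditions was 0.0904 over all probes. Print run 1 held 90 arrays and print run 2 held 26. The arrays that set GM-CSF against 0 h, and FI-Delta against parental cells, were on run 1 for replicate 1 and on run 2 for replicate 2. All other comparisons were on run 1, apart from repeats of V449E against parental cells at 0 h on run 2. A fitted value also draws on the paths through other RNAs, so the means of the direct arrays on each run are given beside it for the comparisons with parental cells.

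The copies are shown by the stretch of their promoters that they have in common. It lies before the annotated start, so it shows how alike the copies are there and not in the transcripts that the probes measure. Each line is 140 bases 5′ to 3′ on the gene's own strand from RefSeq, build GRCm38.p6, and all 4 Bcl2a1 copies listed there were found. Capitals mark GAGGAAGT and TGANTCA.
Bcl2a1a (chr9:88956780-88956919, plus strand): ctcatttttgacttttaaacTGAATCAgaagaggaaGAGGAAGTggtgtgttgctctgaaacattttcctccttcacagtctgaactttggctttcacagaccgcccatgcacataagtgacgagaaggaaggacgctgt
Bcl2a1d (chr9:88731851-88731990, minus strand): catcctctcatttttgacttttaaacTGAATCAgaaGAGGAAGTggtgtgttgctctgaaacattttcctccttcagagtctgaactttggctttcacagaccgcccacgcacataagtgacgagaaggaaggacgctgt
Bcl2a1b (chr9:89199089-89199228, plus strand): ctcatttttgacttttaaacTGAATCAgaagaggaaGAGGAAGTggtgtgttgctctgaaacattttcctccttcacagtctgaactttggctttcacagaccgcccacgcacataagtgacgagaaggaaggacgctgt
Bcl2a1c (chr9:114329885-114330024, plus strand): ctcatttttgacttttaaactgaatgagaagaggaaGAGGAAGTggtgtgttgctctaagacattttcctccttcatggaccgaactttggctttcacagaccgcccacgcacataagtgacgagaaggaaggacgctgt

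The Bcl2a1a and Bcl2a1b stretches were identical at 139 of 140 aligned bases and the Bcl2a1a and Bcl2a1d stretches at 132 of 134, with 6 gap bases. Bcl2a1c was the most distant, identical to Bcl2a1a at 132 of 140 bases, or 94.3%. GAGGAAGT, letters of the kind bound by ETS factors such as PU.1, occurred once in each of the 4 windows of 300 bases (250 before and 50 after the annotated start) and in 3.2% of the 32851 such windows in the table, with both strands searched. The 140-base stretches were placed around GAGGAAGT. The copies are near-identical there, so matches in the 4 copies are not separate observations. TGANTCA, a loose AP-1 pattern with any base in the middle, was found in Bcl2a1a, Bcl2a1d and Bcl2a1b and in 7.81% of all windows. In the copies it read TGAATCA, whereas the usual AP-1 letters have C or G in the middle. In Bcl2a1a TGANTCA began 120 bases before the annotated start, against 104 bases for GAGGAAGT, and the motifs did not overlap. It did not occur in the Bcl2a1c window. A loose NF-kB pattern, GGG and CC with any 5 bases between, was in the Bcl2a1c and Bcl2a1b windows and in 50.8% of all windows. The 140-base stretch ends at the annotated start in Bcl2a1a and Bcl2a1d, 44 bases before it in Bcl2a1b and 110 in Bcl2a1c. The windows of Bcl2a1a and Bcl2a1d thus stop too soon after the stretch to hold the pattern at the same place. Its lack there does not show a difference between the copies. TTCNNNGAA (STAT, 8.3% of windows) and TTGCNNAA (C/EBP, 10.8%) were in none of the 4. These are matches of letters and say nothing about binding.

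The level of a probe in an RNA is given on the log2 scale, centred within each replicate on the mean of the 18 conditions, so 0 is the average condition. All 3 probes were lowest in parental cells at 0 h and highest in FI-Delta cells late in the time course. The span between the lowest and the highest condition was 1.97 for Bcl2a1a (3.92-fold), 2.01 for Bcl2a1c (4.03-fold) and 2.14 for Bcl2a1d (4.41-fold). The gap between replicates of a condition had a median of 0.23, 0.28 and 0.10 for the same probes, with the widest gaps at 0.75 for Bcl2a1a in GM-CSF at 24 h, 0.54 for Bcl2a1c in FI-Delta at 48 h and 0.43 for Bcl2a1d in V449E at 6 h.

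**Figure D1:**
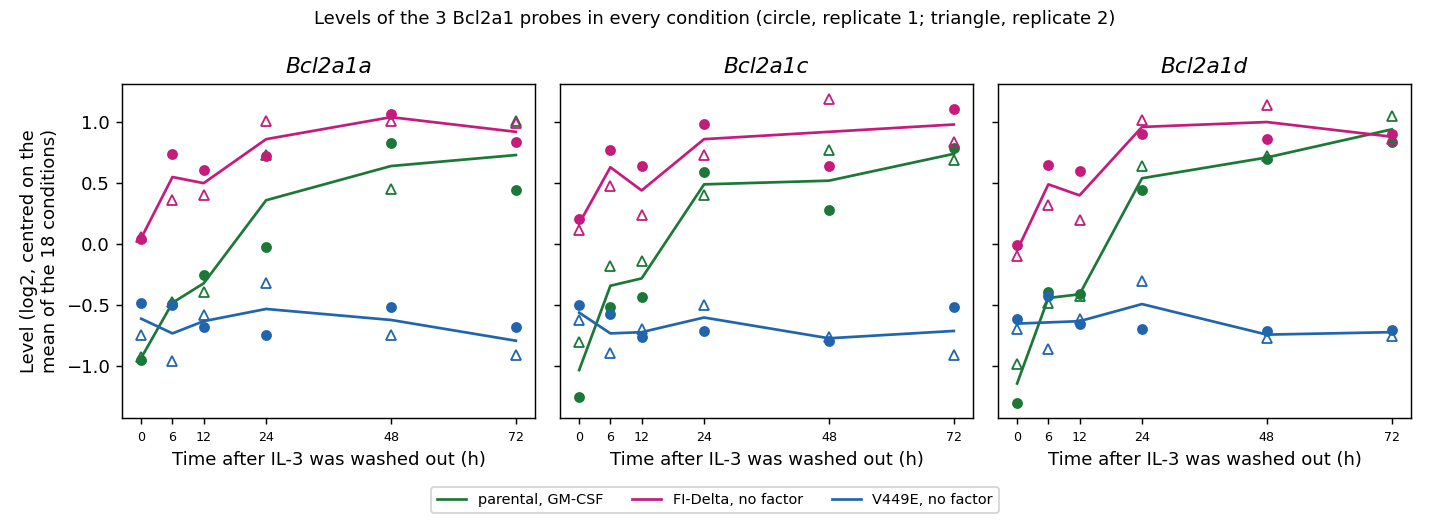
Level of each Bcl2a1 probe (log2, centred on the mean of the 18 conditions) against hours after IL-3 was washed out, 1 panel per gene. Points are the 2 replicates and lines their mean. FI-Delta (pink) lies above V449E (blue) at every time in both replicates, and the parental cells (green) start at -0.93, -1.03 and -1.14 in IL-3 and climb in GM-CSF to between 0.73 and 0.94 at 72 h.

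In order of mean level, FI-Delta at 24, 48 and 72 h held the top 3 places for Bcl2a1a and Bcl2a1c, with GM-CSF at 72 h next. For Bcl2a1d, GM-CSF at 72 h (0.94) stood among them, between FI-Delta at 24 h (0.96) and at 72 h (0.88). FI-Delta at 0 h came in the middle, and GM-CSF at 12 and 6 h below it. The 6 V449E conditions filled the places from there to the bottom, between -0.49 and -0.79, with only parental cells at 0 h under them. Neighbours in this order mostly lay within 2 SE of each other. For Bcl2a1a no neighbouring pair differed by more than that. For Bcl2a1c only the step from FI-Delta at 0 h down to GM-CSF at 12 h did (0.45). Bcl2a1d had 3 such steps, from FI-Delta at 12 h down to FI-Delta at 0 h (0.45), from there to GM-CSF at 12 h (0.36) and from V449E at 48 h down to parental cells at 0 h (0.40).

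Of the lines, parental cells had the largest fitted changes, a comparison that the choice of the genes favoured. In IL-3 at 0 h, Bcl2a1d was at -1.30 and -0.98 in replicates 1 and 2, and in GM-CSF it was at -0.39 and -0.48 at 6 h, 0.44 and 0.64 at 24 h and 0.84 and 1.05 at 72 h. Both replicates were thus higher at each later time than at 0 h, with a step between 12 and 24 h. The difference from 0 h was 0.70 at 6 h, 0.73 at 12 h, 1.68 at 24 h, 1.85 at 48 h and 2.09 at 72 h (SE 0.15 each, n = 2 RNAs a condition here and throughout), 4.24-fold at the end, and it ranked 5 from the top of 21797 probes at 72 h. Bcl2a1c was at -1.25 and -0.80 at 0 h and 0.79 and 0.69 at 72 h, a difference of 1.77 (SE 0.20, 3.40-fold). Bcl2a1a was at -0.95 and -0.92 at 0 h and at 0.44 and 1.01 at 72 h, a difference of 1.66 (SE 0.21, 3.16-fold). The direct arrays at 72 h gave 2.06 on run 1 and 1.44 on run 2 for Bcl2a1c, 1.25 and 2.09 for Bcl2a1a and 2.18 and 2.22 for Bcl2a1d. At 24 h they gave 0.56 and 1.68 for Bcl2a1a, 1.89 and 1.17 for Bcl2a1c and 1.88 and 1.62 for Bcl2a1d. Over the 3 probes and both runs they lay between 0.52 and 0.74 at 6 h, 0.48 and 0.99 at 12 h, and 1.28 and 1.98 at 48 h. At 6 h the fitted differences from 0 h were 0.68 for Bcl2a1c and 0.45 for Bcl2a1a. On the arrays that set GM-CSF directly against 0 h, every ratio of the 3 probes was above 0 at every time, from 0.32 to 2.56. Of all probes, 2.92% passed in the upward direction at 72 h. This contrast led to the choice of the genes, so nothing is read from that share or from the rank.

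In FI-Delta cells the 3 probes began higher and rose without factor. Bcl2a1d was at -0.01 and -0.10 at 0 h, 0.65 and 0.32 at 6 h, 0.60 and 0.20 at 12 h, 0.90 and 1.02 at 24 h, 0.86 and 1.14 at 48 h and 0.90 and 0.86 at 72 h. Each later replicate value was above both of those at 0 h. Its rise over 0 h was 1.01 at 24 h (SE 0.15, adjusted p = 0.00147), 1.05 at 48 h (adjusted p = 0.000259) and 0.93 at 72 h (adjusted p = 0.000172), about 2-fold at each (2.02-, 2.08- and 1.91-fold). Bcl2a1a moved from 0.04 and 0.06 to 1.07 and 1.01 at 48 h, a rise of 0.99 (SE 0.21, adjusted p = 0.00785), and was 0.87 above 0 h at 72 h (adjusted p = 0.00602). Bcl2a1c moved from 0.21 and 0.12 to 0.64 and 1.19 at 48 h, a rise of 0.75 (SE 0.20, adjusted p = 0.03), and was 0.81 above 0 h at 72 h (adjusted p = 0.00639). At 24 h their differences of 0.81 (Bcl2a1a, adjusted p = 0.0522) and 0.69 (Bcl2a1c, adjusted p = 0.0871) did not pass.

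Over the FI-Delta time course 7 of 15 tests of the 3 probes passed, all upward: 1 of 3 at 24 h and 3 of 3 at both 48 and 72 h. The share of all probes that passed upward was 0.913% at 24 h, 2.43% at 48 h and 6.75% at 72 h. None of the 3 passed in limma at 6 h, where 0.298% of probes rose, or at 12 h, where 1.78% did, although 3 and 2 of them had an unadjusted p under 0.05 and the differences were 0.46 to 0.54 and 0.27 to 0.45. A fit of all single arrays called all 15. It takes arrays and not RNAs as the unit, so repeat arrays of the same RNAs enter as separate values. The share of all probes that it called was not counted. Bcl2a1d kept its calls at 24, 48 and 72 h under each of 11 alternative settings (highest adjusted p 0.0349, 0.0101 and 0.00943). The other probes did not. Bcl2a1a at 48 h lost its call without either FI-Delta replicate at 0 h (adjusted p = 0.241 and 0.0953) or at 48 h (0.0592 and 0.0511), and at 72 h without replicate 1 at 0 h (0.134) or either replicate at 72 h (0.0511 and 0.0634). Bcl2a1c at 48 h lost it without either replicate at 0 h (0.264 and 0.181) or replicate 2 at 48 h (0.457, with the difference down to 0.46), and at 72 h without either replicate at 0 h (0.0789 and 0.0544) or replicate 1 at 72 h (0.115). With arrays scaled to equal spread, Bcl2a1c at 48 h (0.0648) and at 72 h (0.0736) and Bcl2a1a at 72 h (0.0757, difference 0.62) also lost theirs.

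**Figure D2:**
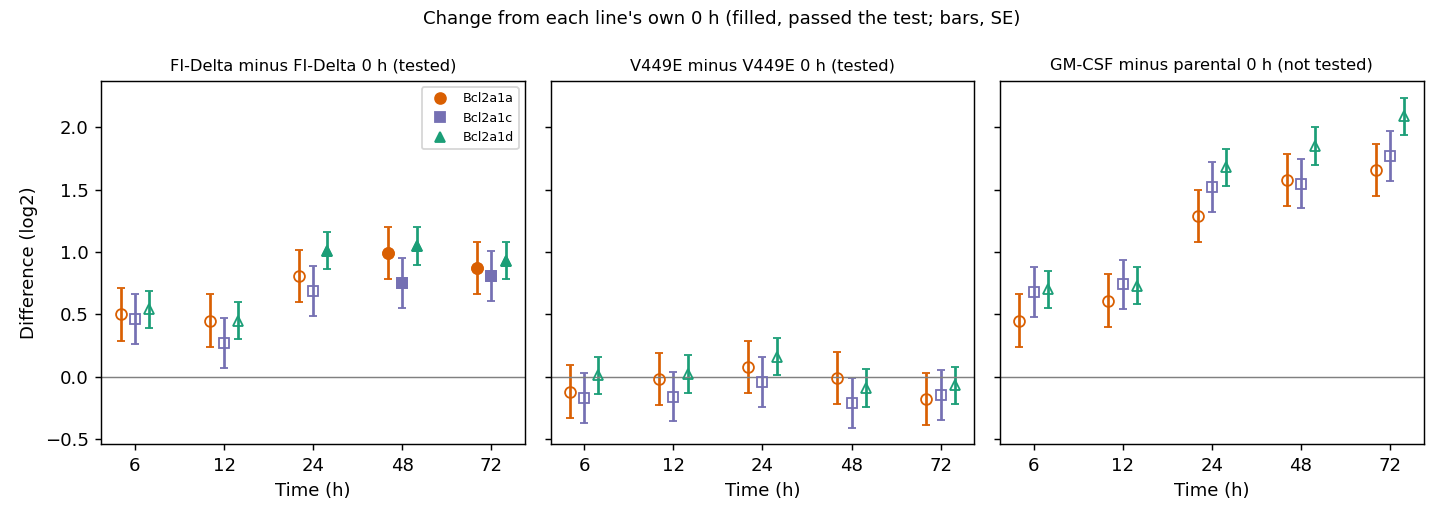
Difference in log2 level from the same line's 0 h at each time, for FI-Delta, V449E and parental cells in GM-CSF, with SE bars. Filled symbols passed the test; the GM-CSF panel was not tested. FI-Delta reaches 0.75 to 1.05 at 48 h, V449E stays between -0.21 and 0.16, and GM-CSF reaches 1.66 to 2.09 at 72 h.

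In V449E cells no test of the 3 probes passed after IL-3 was removed. Bcl2a1d was at -0.61 and -0.69 at 0 h, -0.42 and -0.86 at 6 h, -0.69 and -0.30 at 24 h and -0.70 and -0.75 at 72 h. The later values lay on both sides of the 0 h values. Bcl2a1a was between -0.96 and -0.32 and Bcl2a1c between -0.91 and -0.50 over the 12 V449E RNAs. The 15 differences from 0 h ran from -0.21 to 0.16, with the 95% intervals of the 72 h differences from -0.62 to 0.25 for Bcl2a1a, -0.55 to 0.26 for Bcl2a1c and -0.38 to 0.24 for Bcl2a1d. In limma 0 of 15 tests passed, 0 of 15 had an unadjusted p under 0.05, and a fit of all single arrays called 0 as well. Of all probes, 0.702% passed in either direction at 6 h, 1.28% at 12 h, 1.45% at 24 h, 0.00459% at 48 h and 0% at 72 h.

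The lines were then compared at the same time. At 0 h, with both in IL-3, V449E was lower than FI-Delta by values of -0.66 for Bcl2a1a (SE 0.21, adjusted p = 0.402), -0.73 for Bcl2a1c (SE 0.20, adjusted p = 0.227) and -0.60 for Bcl2a1d (SE 0.15, adjusted p = 0.133). None of these passed in limma, where 0.11% of probes passed downward, although all 3 had an unadjusted p under 0.05. The ratios were below 0 on all 4 direct arrays for each probe. A fit of all single arrays, with arrays and not RNAs as the unit, called all 3. The comparison's own dye-swap pairs called Bcl2a1c (adjusted p = 0.0309) and Bcl2a1d (adjusted p = 0.0133). The share of all probes called by either of these fits was not counted. Another probe, annotated to more than 1 Bcl2a1 copy and so not counted as any of them, passed (-0.75, SE 0.14, adjusted p = 0.0138).

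After the removal of IL-3 all 15 tests of V449E against FI-Delta passed, 3 of 3 at each time, with V449E lower. The share of all probes that passed downward was 0.44% at 6 h, 0.67% at 12 h, 1.89% at 24 h, 4.59% at 48 h and 7.65% at 72 h. At 6 h Bcl2a1c was at -0.57 and -0.89 in V449E and at 0.77 and 0.48 in FI-Delta, a difference of -1.36 (SE 0.20, 2.56-fold lower, adjusted p = 0.000647). It ranked 17 among the 21797 probes ordered from the largest fall, with Bcl2a1a at 21 (-1.28, SE 0.21, adjusted p = 0.00242) and Bcl2a1d at 26 (-1.13, SE 0.15, adjusted p = 0.000149). At 12 h the differences were -1.13, -1.16 and -1.03 for Bcl2a1a, Bcl2a1c and Bcl2a1d, and at 24 h they were -1.39, -1.46 and -1.45. The gap was widest at 48 and 72 h. Bcl2a1d at 48 h was at -0.71 and -0.77 in V449E and at 0.86 and 1.14 in FI-Delta, a difference of -1.74 (SE 0.15, 3.34-fold lower, adjusted p = 7.03e-08). Bcl2a1a at 72 h was at -0.68 and -0.91 in V449E and at 0.84 and 0.99 in FI-Delta, a difference of -1.71 (SE 0.21, 3.27-fold lower, adjusted p = 3.96e-06). Over 6 to 72 h the highest V449E value was -0.32, -0.50 and -0.30 for Bcl2a1a, Bcl2a1c and Bcl2a1d. The lowest FI-Delta value was 0.36, 0.24 and 0.20. How many of all probes part the lines in this way was not counted.

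The direct arrays of V449E against FI-Delta were all on print run 1 and were below 0 for each probe at every time, from -0.43 to -2.41. At 24, 48 and 72 h each of the 3 probes kept its call under all 11 alternative settings, with the highest adjusted p at 0.0309. At the early times some calls rested on 1 RNA. At 6 h Bcl2a1a lost its call without FI-Delta replicate 1 (adjusted p = 0.136) or V449E replicate 2 (0.087), and Bcl2a1c without FI-Delta replicate 1 (0.0648). At 12 h Bcl2a1a lost it without FI-Delta replicate 1 (0.148) or V449E replicate 1 (0.0612), and Bcl2a1c without FI-Delta replicate 1 (0.101). Bcl2a1d kept it at both times.

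**Figure D3:**
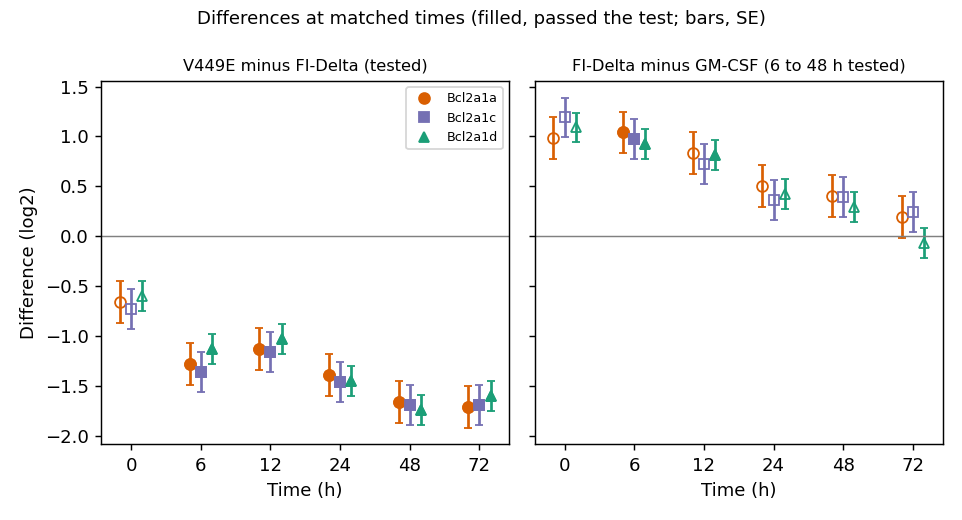
Difference in log2 level at matched times for V449E minus FI-Delta (left) and FI-Delta minus parental cells (right, parental cells in IL-3 at 0 h and in GM-CSF after that), with SE bars and filled symbols for tests that passed. The left panel falls from between -0.73 and -0.60 at 0 h to between -1.74 and -1.66 at 48 h, and the right panel from between 0.98 and 1.19 at 0 h to between -0.07 and 0.24 at 72 h.

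FI-Delta cells without factor were set against parental cells in GM-CSF. At 6 h all 3 probes were higher in FI-Delta, where 0.417% of all probes passed upward. Bcl2a1a was at 0.74 and 0.36 in FI-Delta and at -0.49 and -0.47 in GM-CSF, a difference of 1.04 (SE 0.21, 2.05-fold, adjusted p = 0.0182), or 1.24 in replicate 1 and 0.84 in replicate 2 (1.34 and 0.91 on the direct arrays of runs 1 and 2). The difference was 0.97 for Bcl2a1c (SE 0.20, adjusted p = 0.0187), with replicates at 1.29 and 0.66 (direct arrays 1.28 and 0.61). For Bcl2a1d it was 0.92 (SE 0.15, adjusted p = 0.00333), with replicates at 1.05 and 0.80 (direct arrays 0.80 and 0.81). At 12 h only Bcl2a1d passed (0.81, adjusted p = 0.0145), where 0.229% of probes passed upward, with Bcl2a1a at 0.83 (SE 0.21, adjusted p = 0.0963) and Bcl2a1c at 0.72 (SE 0.20, adjusted p = 0.136). The direct arrays at 12 h gave 1.10 on run 1 and 0.62 on run 2 for Bcl2a1d, 0.96 and 0.74 for Bcl2a1a and 1.11 and 0.49 for Bcl2a1c.

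Later differences were smaller. At 24 h the differences were 0.50, 0.36 and 0.42 for Bcl2a1a, Bcl2a1c and Bcl2a1d, and at 48 h 0.40, 0.39 and 0.29. None of these passed in limma, where 0.133% of probes passed upward at 24 h and 0.211% at 48 h. At an unadjusted p under 0.05 there were 2 of 3 at 24 h and 0 of 3 at 48 h. A fit of all single arrays, with arrays and not RNAs as the unit, called 11 of the 12 tests from 6 to 48 h. The share of all probes that this fit called was not counted. The 95% intervals at 48 h ran from -0.04 to 0.83, -0.02 to 0.80 and -0.02 to 0.60. The same comparison at 72 h, a description only, gave 0.19, 0.24 and -0.07. The direct arrays of either run gave 0.30 to 0.60 at 24 h, 0.14 to 0.47 at 48 h and 0.00 to 0.35 at 72 h. Without GM-CSF replicate 1 at 6 h Bcl2a1a (adjusted p = 0.144) and Bcl2a1c (0.27) lost their calls, as they did without FI-Delta replicate 1 (0.401 and 0.302), and Bcl2a1a also without GM-CSF replicate 2 (0.0794). Bcl2a1d at 12 h lost its call without GM-CSF replicate 1 (0.0635), GM-CSF replicate 2 (0.0831) or FI-Delta replicate 1 (0.316), while at 6 h it kept it under all 10 settings.

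At 0 h, with all lines in IL-3, the mutants stood above the parental cells, given here as values because the parental RNA entered the choice of the genes. FI-Delta minus parental was 0.98 for Bcl2a1a (0.99 and 0.98 in replicates 1 and 2), 1.19 for Bcl2a1c (1.46 and 0.92) and 1.09 for Bcl2a1d (1.29 and 0.89). The direct arrays on runs 1 and 2 gave 0.90 and 0.91, 1.41 and 0.70, and 1.36 and 0.80. The fitted differences took places 11, 6 and 10 from the top of 21797 probes. The choice of the genes favoured such places, so nothing is read from them. V449E minus parental was 0.32 (0.47 and 0.18), 0.46 (0.75 and 0.18) and 0.49 (0.69 and 0.29), with direct means over the replicates and runs from 0.08 to 0.82.

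Whether FI-Delta and V449E responded differently to the loss of IL-3 was tested as the difference of their changes from 0 h. It passed for Bcl2a1d at 48 h (1.14, SE 0.21, adjusted p = 0.0141) and 72 h (1.00, SE 0.21, adjusted p = 0.0096) and for Bcl2a1a at 72 h (1.05, SE 0.30, adjusted p = 0.0499), 3 of 15 tests. Bcl2a1c at 72 h was at 0.96 (SE 0.28, adjusted p = 0.0581). Upward differences passed for 0% of probes at 6 and 12 h, 0.00459% at 24 h, 0.161% at 48 h and 1.41% at 72 h. All 15 estimates were above 0, from 0.43 to 1.14. None of the 3 held with arrays scaled to equal spread (Bcl2a1d at 48 h adjusted p = 0.10, Bcl2a1a at 72 h 0.385, Bcl2a1d at 72 h 0.21). None held without V449E replicate 1 at 0 h (Bcl2a1d at 48 h adjusted p = 0.0543, Bcl2a1a at 72 h 0.22, Bcl2a1d at 72 h 0.0576) or replicate 2 at 0 h (0.347, 0.201 and 0.249), and 1 of 3 held without FI-Delta replicate 2 at 0 h or V449E replicate 2 at 48 h. Bcl2a1a at 72 h lost its call when each of its 8 RNAs was left out in turn, with adjusted p from 0.0878 to 0.238, and also with array medians subtracted (0.0512) or probes averaged by symbol (0.0514). Bcl2a1d at 48 h lost it on print run 1 alone (0.0699) and without FI-Delta replicate 2 at 48 h (0.0712).

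The 3 probes gave nearly the same profile. Over the 18 conditions their mean levels correlated at r = 0.986 to 0.991, a description over points that share the same arrays, and the largest gap between any of them in a condition was 0.22. Those means join both replicates. Within 1 replicate the r between probes ran from 0.922 (Bcl2a1a with Bcl2a1c, replicate 1) to 0.988 (Bcl2a1a with Bcl2a1d, replicate 2). The replicates of 1 probe correlated at 0.893 (Bcl2a1a), 0.904 (Bcl2a1c) and 0.95 (Bcl2a1d). Probes within a replicate share RNAs and arrays, whereas replicates do not, so these r values do not show which are closer. Over the mean levels, the probe annotated to more than 1 copy correlated with the 3 at 0.978 to 0.988. It was at -1.11 and -0.93 in parental cells at 0 h and 0.65 and 0.59 in GM-CSF at 72 h, and its V449E minus FI-Delta difference at 48 h was -1.79 (SE 0.14). The copies are known as near-identical, and neither transcript nor probe sequences were compared here. How much each probe measures its own copy cannot be told apart from signal of the other copies, so values named for 1 gene are uncertain as to the gene, and the 3 probes are not independent measurements.

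Of 20 other family genes with a probe, 2 rose and 2 fell in FI-Delta at 72 h, when 6.75% of all probes rose and 8.51% fell, and the list's median difference was 0.04 against 0.005 over all probes. Mcl1, an anti-apoptotic relative with a short-lived protein, rose by 0.62 (SE 0.10, adjusted p = 0.000234) and Bcl2l12 by 0.71 (SE 0.13, adjusted p = 0.00048). Bid, a BH3-only protein cleaved by caspase-8, fell by 0.41 (SE 0.11, adjusted p = 0.0131) and Bcl2l14 fell by 0.45 (SE 0.11, adjusted p = 0.009). V449E against FI-Delta at 72 h gave 2 lower and 1 higher of the 20, when 7.65% of all probes were lower and 9.02% higher, which is near the list's own shares, with Bcl2l12 at -0.96 (SE 0.13, adjusted p = 1.12e-05), Mcl1 at -0.52 (SE 0.10, adjusted p = 0.000982) and Bid at 0.36 (SE 0.11, adjusted p = 0.0282). At 6, 12 and 24 h, when all 3 Bcl2a1 probes were lower in V449E, the median difference of the 20 was 0.07, 0.04 and -0.02, against -0.004, -0.005 and -0.003 over all probes. In V449E at 12 h, where 0.537% of probes rose and 0.739% fell, Pmaip1, the BH3-only protein Noxa, rose by 0.52 (SE 0.11, adjusted p = 0.0149) and Bcl2l1 fell by 0.60 (SE 0.15, adjusted p = 0.048). Bax had no probe with its symbol among those tested.

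**Figure D4:**
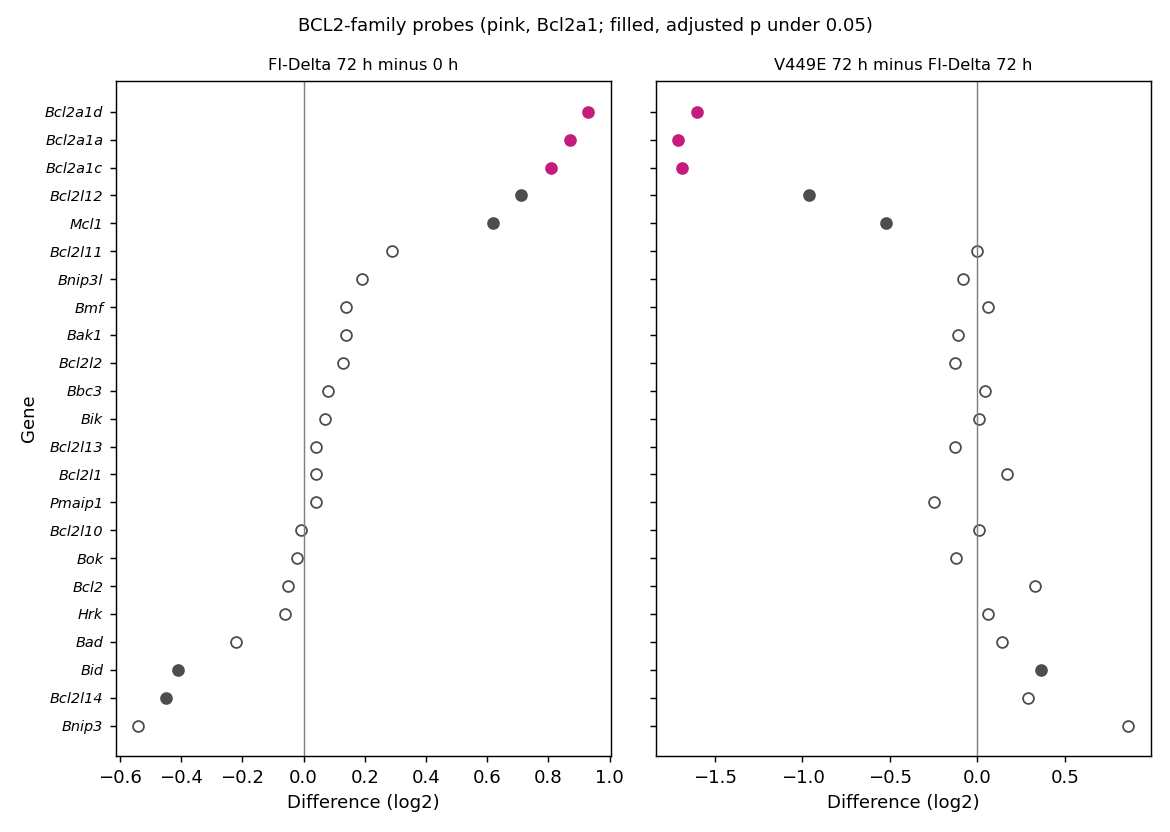
Difference in log2 level of the 3 Bcl2a1 probes (pink) and 20 other BCL2-family genes (grey) in FI-Delta at 72 h minus 0 h (left) and V449E minus FI-Delta at 72 h (right). Filled symbols had an adjusted p under 0.05. The Bcl2a1 probes are at 0.81 to 0.93 on the left and -1.71 to -1.60 on the right, and the other family genes lie between -0.54 and 0.71 and between -0.96 and 0.86.

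Of 27 probes for NF-kB components and targets, 4 rose in FI-Delta at 72 h (median 0.08), when 6.75% of all probes rose. Il1b, an inflammatory cytokine, rose by 1.32 (SE 0.31, adjusted p = 0.00492), Tnf by 0.57 (SE 0.18, adjusted p = 0.0302), Ptgs2 by 0.42 (SE 0.11, adjusted p = 0.0148) and Nfkbiz by 0.40 (SE 0.12, adjusted p = 0.0208). At 6 h in FI-Delta, where 0.298% of all probes rose and the Bcl2a1 probes did not pass, 5 of the 27 had risen. They were led by 1 probe of Birc3, an inhibitor of apoptosis, at 0.85 (SE 0.20, adjusted p = 0.0416), with its other probe at 0.05. Next came Tnfaip3 at 0.75 (SE 0.17, adjusted p = 0.0328), Nfkb2 at 0.65 (SE 0.13, adjusted p = 0.0161) and Relb at 0.62 (SE 0.13, adjusted p = 0.0181). In V449E at 6 h, where 0.39% of all probes rose and the Bcl2a1 probes were between -0.17 and 0.01, 8 of the 27 rose (median 0.31, against 0.28 in FI-Delta). Birc3 was at 1.18 (SE 0.20, adjusted p = 0.00285), Tnfaip3 at 0.99 (SE 0.17, adjusted p = 0.0037), Nfkb2 at 0.97 (SE 0.13, adjusted p = 0.000412) and Tnip1 at 0.82 (SE 0.15, adjusted p = 0.00746). V449E against FI-Delta at 72 h gave 7 lower of the 27 (median -0.14), when 7.65% of probes were lower and 9.02% higher. Il1b led them at -2.21 (SE 0.31, adjusted p = 2.27e-05), with Tnf at -1.02 (SE 0.18, adjusted p = 0.000247).

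Among 25 probes for GM-CSF and IL-3 receptors and their signalling, 6 rose and 4 fell in FI-Delta at 72 h, when 6.75% of all probes rose and 8.51% fell. Fos and Egr1, immediate early factors, rose by 1.97 (SE 0.23, adjusted p = 7.08e-06) and 1.74 (SE 0.34, adjusted p = 0.00109). Csf2ra, the GM-CSF receptor's alpha chain, rose by 0.89 (SE 0.15, adjusted p = 0.000364). The probes of Ccnd2, which encodes cyclin D2, rose by 1.07 (SE 0.26, adjusted p = 0.0056) and 0.58 (SE 0.16, adjusted p = 0.013). The STAT5 feedback inhibitor Socs1 fell by 0.70 (SE 0.16, adjusted p = 0.00436) and Jak2 fell by 0.65 (SE 0.11, adjusted p = 0.000246). In V449E at 12 h, where 0.739% of all probes fell, 4 of the 25 fell: Socs1 by 1.00 (SE 0.16, adjusted p = 0.00295), Cish by 0.94 (SE 0.19, adjusted p = 0.0125), Myc by 0.63 (SE 0.16, adjusted p = 0.0472) and Pim1 by 0.57 (SE 0.13, adjusted p = 0.0348). In FI-Delta at 12 h, where 1.78% of all probes rose and 3.28% fell, 5 of the 25 fell and 1 rose. Myc fell by 0.94 (SE 0.16, adjusted p = 0.00123), Socs1 by 0.67 (SE 0.16, adjusted p = 0.0185) and Pim1 by 0.61 (SE 0.13, adjusted p = 0.0104).

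Many markers of mature myeloid cells were higher in FI-Delta at 72 h, when 6.75% of all probes rose and 8.51% fell over 0 h, and when 7.65% were lower and 9.02% higher in V449E than in FI-Delta. Of 15 probes for late neutrophil granule genes, 9 rose in FI-Delta at 72 h (median 1.19), and 12 were lower in V449E than in FI-Delta at 72 h (median -2.24). Their mean level ran from 0.38 to 1.52 over the 10 FI-Delta RNAs after 0 h, from -1.12 to -0.76 in V449E and from -0.39 to 1.12 in GM-CSF. In FI-Delta against GM-CSF at 6 and 12 h the neutrophil list had medians of 1.16 and 1.01, and the Bcl2a1 probes were higher too. In V449E against FI-Delta at 0, 6, 12, 24 and 48 h its medians were -1.09, -1.28, -1.44, -1.67 and -2.07. The Bcl2a1 probes were lower there too, between -0.73 and -0.60 at 0 h, without passing, and between -1.74 and -1.66 at 48 h. In some other comparisons the neutrophil list had medians near 0 or below it where the Bcl2a1 probes were higher. In GM-CSF at 6, 12 and 24 h its median difference from 0 h was -0.37, -0.10 and 0.02, with the Bcl2a1 probes at 0.45 to 1.68. At 0 h its median was 0.03 for FI-Delta minus parental cells and -0.68 for V449E minus parental cells, with the Bcl2a1 probes at 0.98 to 1.19 and 0.32 to 0.49. Of 17 macrophage probes, 9 rose and 1 fell in FI-Delta at 72 h, and 7 were lower and 2 higher in V449E. Their mean level ran from -0.02 to 0.57 in FI-Delta, -0.16 to 0.20 in V449E and -0.50 to 0.22 in GM-CSF. The median difference of the macrophage probes at 0 h was 0.42 for FI-Delta and 0.35 for V449E minus parental cells. In GM-CSF at 6, 12 and 24 h against 0 h it was -0.01, 0.03 and 0.43. Of 10 mast cell and basophil probes, 4 fell in FI-Delta at 72 h, led by Cpa3, the mast cell carboxypeptidase, at -2.87 (SE 0.24, adjusted p = 9.42e-08). In V449E at 24 h, where 1.45% of all probes passed in either direction, 3 of the 17 macrophage probes rose (median 0.25). They were Ctss (1.06, adjusted p = 0.019), Mpeg1 (1.06, adjusted p = 0.0259) and Cd68 (0.72, adjusted p = 0.0209), while the Bcl2a1 probes were between -0.04 and 0.16. None of the 17 passed in V449E at 48 or 72 h, when 0.00459% and 0% of all probes did. The mean level of 4 B lymphoid probes ran from -0.11 to 0.10 in FI-Delta after 0 h and that of 5 T lymphoid probes from -0.04 to 0.15. In ratios no marker can be called absent, and a change in the share of maturing cells cannot be told apart from a change of Bcl2a1 RNA within each cell. The part of these markers in the Bcl2a1 results was not tested.

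The genes most like the Bcl2a1 probes were found among 670 probes of 1 symbol whose condition means spanned at least 1, by Pearson's r to the mean of the 3 probes over the 18 conditions. The 10 closest ran from Siglece (r = 0.963), an inhibitory sialic acid receptor, to Cap1 (r = 0.928). Between them came Phlda1 (0.954), Xdh, which encodes xanthine dehydrogenase (0.952), Slfn1 (0.952), the transcription factor gene Cebpb (0.949), Slfn4 (0.944), Plaur, the urokinase receptor (0.938), Cmklr1, the chemerin receptor (0.938), and Tex101 (0.933). Slfn1 had the widest span of these at 2.52, with 1.61 in GM-CSF, 1.22 in FI-Delta and -0.22 in V449E at 72 h minus 0 h. The same differences for Cebpb were 1.03, 0.31 and -0.12. The most opposite genes were Fut7 (r = -0.902), a fucosyltransferase that makes selectin ligands, Rab27b (-0.901), a small GTPase of granule secretion, and Stc2 (-0.90). These r values are descriptions over conditions that share arrays.

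In RefSeq's gene order on chromosome 9, Bcl2a1d, Bcl2a1a and Bcl2a1b lie within a short run of genes that also holds Trim43c and Trim43b and ends at Mthfs, and Bcl2a1c lies apart, next to Crtap. Of the neighbouring genes with a probe beside the first group, Mthfs rose in FI-Delta at 72 h by 0.54 (adjusted p = 0.0016) and Zfp949 by 0.59 (adjusted p = 0.00292), Syncrip fell by 0.39 (adjusted p = 0.00888), and Tmed3 (-0.14) and Rasgrf1 (0.05) did not pass. Beside Bcl2a1c, which was 0.81 higher, Crtap fell by 0.25 (adjusted p = 0.0409), and Glb1 (-0.07), Ccr4 (0.15), Trim71 (-0.02), Ubp1 (0.08), Fbxl2 (0.05) and 4921528I07Rik (-0.15) did not pass. Over all probes, 6.75% rose and 8.51% fell at 72 h.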

How the data were processed

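RNA of FDB1 cells was hybridised on 2-colour arrays in 58 dye-swap pairs. The authors deposited normalised log ratios, used here as log2 values, with limma named without a version in the submitters' processing notes. The log base and the direction of the ratio are not given in the sources used here and are taken as log2 of Cy5 over Cy3 (channel 1 over channel 2), so directions are likely rather than settled. Per the labels, spots of both print runs were put in 1 order after normalisation. Gene symbols came from the platform annotation, 15973 probes updated through their Entrez identifier.

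Of 23040 probes, 1243 controls were left out and 21797 tested, with no filter on low values. Dye-swap arrays were averaged in the same direction, and the level of each of 36 RNAs was fitted by least squares within its replicate number. Replicates are paired by the design, since every array holds RNAs of 1 replicate number. limma 3.58.1 in R 4.3.3 (lmFit, eBayes) was run on the levels with the replicate as a block, 17 residual and 5.99 prior degrees of freedom, 2-sided, with Benjamini-Hochberg adjustment over all 21797 probes in each comparison and a threshold of 0.05. The fit was tested on simulated data. The members and lists were chosen with earlier results of these data known. Named genes are the members, the 10 probes most like them and the 3 most opposite, and up to 4 passing list genes in each direction per comparison. Neighbouring genes are named whatever their values. Alternatives changed the block, the arrays used, the unit of the fit, the print run, scaling, centring, probe averaging and the RNAs left out. Where an RNA was left out, its condition's other RNA was assumed to vary like the other conditions.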

Additional observations from a re-analysis of the deposited data

Results flagged for a closer look

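On single arrays, 8 of 84 groups, each the arrays of 1 probe in 1 comparison, had 1 ratio far from the others, where chance alone gives about 1 group in 20. A group held 4 arrays, or 8 for V449E against parental cells at 0 h, and those named here held 4. Bcl2a1a was at -1.74 on 1 array of V449E against FI-Delta at 12 h (others -1 to -0.89) and at -0.13 on 1 array of V449E at 48 h against 0 h (others 0.00 to 0.02). Bcl2a1c was at 0.15 on 1 array of FI-Delta against GM-CSF at 24 h (others 0.43 to 0.47) and at 0.56 on 1 array of the same comparison at 72 h (others 0.07 to 0.14). Bcl2a1d was at 0.23 on 1 array of FI-Delta against GM-CSF at 24 h (others 0.54 to 0.61) and at 1.32 on 1 array of GM-CSF at 12 h against 0 h (others 0.55 to 0.66). It was also at -1.40 on 1 array of V449E against FI-Delta at 12 h (others -1.01 to -0.94) and at -1.37 on 1 array of the same comparison at 6 h (others -1.06 to -1). Replicate 1 with V449E in Cy5 gave the array that stood apart at 12 h for both Bcl2a1a and Bcl2a1d.

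The change from 0 h differed between FI-Delta and V449E by the test of that difference for Bcl2a1d at 48 h (1.14), Bcl2a1a at 72 h (1.05) and Bcl2a1d at 72 h (1.00).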

How the results depend on the processing

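With all arrays in 1 limma fit, which takes arrays as the unit and adds a dye effect and a pair correlation together, and where dye-swap pairs had a consensus correlation of 0.144, FI-Delta against its 0 h went from 7 to 15 of 15, FI-Delta against GM-CSF from 4 to 11 of 12 and the difference in response from 3 to 15 of 15. Which of these 3 changes moved the counts was not tested. The share of all probes called under this fit, or under the other settings below, was not counted. In the comparisons' own dye-swap pairs each difference rests on its direct arrays alone. These pairs gave 10 for FI-Delta against 0 h, 17 for V449E against FI-Delta and 0 for V449E against its 0 h. They gave 6 for FI-Delta against GM-CSF and 5 for the difference in response. Arrays scaled to equal spread gave 4 for FI-Delta against 0 h and 0 for the difference in response. Leaving out 1 RNA at a time gave 3 to 8 passing tests for FI-Delta against 0 h, 2 to 5 for FI-Delta against GM-CSF and 0 to 3 for the difference in response. V449E against FI-Delta stayed between 13 and 18 of 18 and V449E against its 0 h at 0 under all alternatives run. Without the replicate block, which keeps RNAs of 1 replicate number paired, the counts were 8, 4, 4, 15 and 0 for FI-Delta against 0 h, FI-Delta against GM-CSF, the difference in response, V449E against FI-Delta and V449E against 0 h. Print run 1 alone gave no value for FI-Delta against GM-CSF, since replicate 2 was on run 2. No called difference turned its direction.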
